A study of Mus musculus with 4 samples.

Results

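The 31 genes described here carry out glycolysis or respond to low oxygen. They were taken by symbol from a fixed list and all 31 were found among the 28006 features of the matrices: 3 carriers of glucose or lactate, 15 glycolytic enzymes, 2 genes that set glycolytic flux, 10 hypoxia genes and Hif1a. Their transcripts were counted by single-cell RNA sequencing in murine lung adenocarcinomas, with 1 library in each of 4 groups. KPF1F2 mice carried Foxa1flox and Foxa2flox together with p53frt and Rosa-FSF-CreERT2, and KP mice carried Foxa1flox/+ and Foxa2flox/+ with those same p53 and Rosa alleles. Mice of both genotypes had a mixed 129/B6 background, received Ad5-mSPC-FlpO, an adenovirus that expresses Flp recombinase under a surfactant protein C promoter, and then 4 daily injections of tamoxifen at 120 mg/kg from week 10, which activates CreERT2 where Flp has switched it on. Tumours were taken at week 12, and each genotype gave a library of all cells (pre-depletion) and a library after magnetic removal of cells positive for CD45, a leukocyte protein, or CD31, an endothelial one (post-depletion). KP cells can therefore also lose 1 copy of each Foxa gene, and the labels do not say how many mice were pooled or if the 2 libraries of 1 genotype share animals.

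Glycolysis splits glucose into pyruvate, which lactate dehydrogenase can turn into lactate for export. When oxygen is scarce, prolyl hydroxylases such as the product of Egln3 slow down, the alpha subunit HIF-1α is no longer marked for destruction, and it binds DNA with ARNT at short motifs around ACGTG to raise most glycolytic genes together with genes of mitophagy, collagen hydroxylation and pH control. In lung, neutrophils and many macrophages rely on glycolysis, whereas alveolar type 2 cells, from which these tumours were started, live in well-oxygenated tissue.

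The motif letters were looked for in the 250 bases before each RefSeq start (GRCm38.p6), as ACGTG on either strand, so CACGT on the printed strand counts as a match on the other, and CACGTG holds both. Of the 31 genes 30 were matched to the RefSeq promoter table, Ero1l under its newer symbol Ero1a and all but Ndrg1. A match was present before at least 1 start of 19 of the 30 (63.3%), against 18.5% of 27025 genes of the table (counted over 32851 windows, 16.6% hold it). Stretches of 120 bases are shown for genes on which the results turn, read 5′ to 3′ on the strand of the gene with matches in capitals. They come from chr4:119108625-119108744 (plus strand), chr11:120948947-120949066 (plus), chr7:46845659-46845778 (plus), chr7:138909507-138909626 (minus), chr12:54203984-54204103 (minus) and chr8:45999851-45999970 (minus).
Slc2a1: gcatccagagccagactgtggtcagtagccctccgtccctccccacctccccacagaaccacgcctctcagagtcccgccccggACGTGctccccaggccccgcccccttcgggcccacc
Slc16a3: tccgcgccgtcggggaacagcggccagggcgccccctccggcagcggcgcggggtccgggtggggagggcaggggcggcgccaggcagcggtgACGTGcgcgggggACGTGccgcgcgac
Ldha: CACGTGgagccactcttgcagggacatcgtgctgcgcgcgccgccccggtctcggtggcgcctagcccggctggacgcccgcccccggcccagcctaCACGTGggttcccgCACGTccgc
Bnip3: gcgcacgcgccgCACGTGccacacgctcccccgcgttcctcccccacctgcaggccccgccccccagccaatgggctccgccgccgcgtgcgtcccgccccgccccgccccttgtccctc
Egln3: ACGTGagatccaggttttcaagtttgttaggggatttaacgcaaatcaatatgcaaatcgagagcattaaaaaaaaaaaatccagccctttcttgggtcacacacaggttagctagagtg
Ankrd37: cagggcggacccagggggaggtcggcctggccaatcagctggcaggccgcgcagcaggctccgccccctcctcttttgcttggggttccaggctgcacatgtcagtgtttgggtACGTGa
Ldha held 5 matches, of which 4 lie in 2 CACGTG palindromes, and Bnip3 held 1 palindrome. In Slc16a3 both matches lie within 27 bases of the start, and in Ankrd37 the printed match is 6 bases from it while a second lies upstream of the stretch. Tpi1, the gene with the largest genotype difference among the enzymes, had none in its window. A match describes the letters only.

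After filtering, 3377 cells were kept in KPF1F2 and 3616 in KP pre-depletion, and 2475 in KPF1F2 and 3375 in KP post-depletion, with median depths of 7080 to 16410 unique molecular identifiers (UMIs, 1 per captured transcript). There was no replicate library, so every difference is between single libraries, no p-value is given, and 95% intervals cover counting error only. Epithelial-like cells, named from raised general epithelial markers such as Epcam and Krt8 (all 10 of the list detected in each library), numbered 190 in KPF1F2 and 559 in KP pre-depletion, and 1750 in KPF1F2 and 2410 in KP post-depletion. Foxa1 and Foxa2 had 0 UMIs under their own identifiers in these cells. The added feature Foxa1_2 stood at 10.8 CPM (counts per 1e6 UMIs of the summed cells) in KPF1F2 and 16.8 in KP pre-depletion, and at 3.57 in KPF1F2 and 16.8 in KP post-depletion. In the subset of cells with a UMI of the Flp-activated CRE-ERT2 transgene it stood at 0.487 in KPF1F2 and 17.5 in KP pre-depletion, and at 0.325 in KPF1F2 and 16.8 in KP post-depletion. Sex moved with genotype: Xist stood at 0.199 and 0.301 CPM in the KPF1F2 libraries and at 674 and 710 in the KP libraries, so its part and that of genotype cannot be told apart. Pairs of libraries shared 6 to 16 cell barcodes.

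In epithelial-like cells, 0 of 21 members compared differed 2-fold between genotypes pre-depletion and 1 of 21 post-depletion, Tpi1, which was lower in KPF1F2. Over all genes compared, 2.98% were 2-fold lower and 4.94% higher pre-depletion, and 3.77% and 4.73% post-depletion. A member was compared where its mean over the 2 libraries was 20 CPM or more, which 21 of 31 reached in each state, and called where KPF1F2 and KP differed at least 2-fold with 1 CPM added to each. None of the 21 was called in both states, where 2.96% of 5434 genes were 2-fold higher and 1.99% were 2-fold lower in KPF1F2 in both. The median log2 fold of the members was 0.02 pre-depletion and −0.23 post-depletion, beside 0.09 and 0.08 over all genes compared. Of the 21, 6 were above 0 in both states (46.3% of all genes) and 9 below 0 in both (31.5%). Post over pre-depletion within KPF1F2 or within KP, no member differed 2-fold, and backgrounds were 0.527% higher and 0.914% lower in KPF1F2 and 0.843% and 0.179% in KP.

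Among the enzymes, Tpi1, which interconverts the triose phosphates (ENSMUSG00000023456, chromosome 6, 124810586 to 124814296, minus strand), was the exception. It stood at 241 CPM in KPF1F2 and 467 in KP pre-depletion, and at 282 in KPF1F2 and 617 in KP post-depletion. Both KPF1F2 libraries were below both KP libraries, and the log2 fold was −0.95 pre-depletion, just short of a call, and −1.13 post-depletion (ratio 0.458, 0.448 to 0.467), the 1 call among 21 members there, where 3.77% of 5705 genes were 2-fold lower and 4.73% higher. Pre-depletion no member was called, against 2.98% lower and 4.94% higher of 5647 genes. Tpi1 passed the 2-fold line in both states with TMM or median-of-ratios factors, and its post-depletion log2 fold was −0.98 without the clusters low in CRE-ERT2. Among cells of 10000 to 30000 UMIs its log2 fold was −0.43 pre-depletion and −1.57 post-depletion.

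Gapdh, the next enzyme, stood at 1540 CPM in KPF1F2 and 2056 in KP pre-depletion and at 1504 in KPF1F2 and 2297 in KP post-depletion, log2 folds of −0.42 and −0.61. Aldoa, the main aldolase, went the other way by a small margin, at 698 CPM in KPF1F2 and 583 in KP pre-depletion and 701 in KPF1F2 and 630 in KP post-depletion. Over alternative settings the log2 fold of Gapdh pre-depletion ran from −0.53 to 0.30 and that of Aldoa post-depletion from −0.26 to 0.34. The remaining enzymes from hexokinase (Hk1, Hk2) to lactate dehydrogenase (Ldha) had log2 folds between −0.77 (Hk2, pre-depletion) and 0.30 (Hk1, post-depletion) where compared. Gpi1, the glucose phosphate isomerase, had 0.02 pre-depletion and −0.24 post-depletion, and Pfkl, a phosphofructokinase, had −0.40 in the post-depletion state. Pgk1, a kinase that yields ATP, had −0.20 and 0.09, Pgam1, a mutase, 0.23 and −0.16, and Eno1, the enolase, 0.24 and 0.05. Pkm, the pyruvate kinase, had 0.06 and −0.26, and Ldha −0.18 and −0.25. Pfkp, Pfkm and Aldoc, isozymes of phosphofructokinase and aldolase, were under the minimum, with Pfkm at 5.58 CPM in KPF1F2 and 4.14 in KP pre-depletion and 3.72 in KPF1F2 and 4.34 in KP post-depletion. Aldoc had a log2 fold of −0.24 pre-depletion, and stood at 6.32 CPM in KPF1F2 and 7.92 in KP post-depletion. Summed over the 15 enzymes, cells held 4237 CPM in KPF1F2 and 4886 in KP pre-depletion, and 4293 in KPF1F2 and 5609 in KP post-depletion. Such a sum is weighted towards abundant enzymes such as Gapdh. The median log2 fold of the enzymes compared was −0.08 pre-depletion and −0.20 post-depletion, beside 0.09 and 0.08 over all genes.

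Shares of isoforms differed between genotypes in epithelial-like cells. Of the lactate carrier UMIs, Slc16a3 gave 18.4% (16.2 to 20.7, Clopper-Pearson) in KPF1F2 and 51.2% (49.2 to 53.3) in KP post-depletion, and 23.2% in KPF1F2 and 34.8% in KP pre-depletion. Of the glucose carrier UMIs, Slc2a3, outside the member list, gave 4.40% (64 UMIs) in KPF1F2 and 34.0% (775 UMIs) in KP post-depletion, and 7.85% in KPF1F2 and 39.4% in KP pre-depletion. Of the phosphofructokinase UMIs, which commit sugar to glycolysis, Pfkl, the liver-type form, gave 73.2% (71.6 to 74.8) in KPF1F2 and 82.4% (81.0 to 83.7) in KP post-depletion, and 68.3% in KPF1F2 and 81.7% in KP pre-depletion. Pfkp, the platelet-type form, gave 20.9% (19.4 to 22.4) in KPF1F2 and 11.8% (10.7 to 12.9) in KP post-depletion, although its own level was only 13.1 CPM in KPF1F2 and 8.70 in KP. In neutrophil-like cells the order of the forms was the other way round: Pfkp made up 78.4% in KPF1F2 and 73.5% in KP. Hk2, the inducible hexokinase, made up 50.5% of hexokinase UMIs in KPF1F2 and 58.1% in KP epithelial-like cells post-depletion.

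The carriers and flux regulators were low, and most of them missed the 20 CPM minimum. Slc16a3, the lactate exporter MCT4 (ENSMUSG00000025161, chromosome 11, 120948480 to 120960868, plus strand), stood at 8.77 CPM in KPF1F2 and 16.1 in KP pre-depletion, and at 4.77 in KPF1F2 and 27.9 in KP post-depletion. Its ratio was 0.546 (0.388 to 0.751) pre-depletion and 0.171 (0.147 to 0.197) post-depletion, on 222 UMIs in KPF1F2 and 1192 in KP, so both KPF1F2 libraries lay below both KP libraries. Slc2a1, the glucose carrier GLUT1, showed no common sign, at 35.1 in KPF1F2 and 26.3 CPM in KP pre-depletion and 29.9 in KPF1F2 and 35.3 in KP post-depletion. Slc16a1, the carrier MCT1, had log2 folds of −0.05 and −0.31. Pfkfb3, whose product makes the activator of phosphofructokinase, stood at 7.57 in KPF1F2 and 21.7 CPM in KP pre-depletion and at 9.20 in KPF1F2 and 22.5 in KP post-depletion. Pdk1, a kinase that inhibits pyruvate dehydrogenase, stood at 8.77 in KPF1F2 and 15.1 in KP, and at 6.88 in KPF1F2 and 13.7 in KP, in the same order of states.

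Of the 10 hypoxia genes 6 were compared in both states, of which 3 were above 0 and 2 below 0 in both. Ankrd37, an ankyrin repeat gene responsive to HIF-1 (ENSMUSG00000050914, chromosome 8, 45996902 to 46005707, minus strand), stood at 6.97 CPM in KPF1F2 and 20.4 in KP pre-depletion, and at 6.21 in KPF1F2 and 23.2 in KP post-depletion, with a post-depletion ratio of 0.268 (0.234 to 0.306). Its mean was under the minimum in both states, so it is given by value and not called. Ndrg1, a gene induced by stress and differentiation, stood at 68.7 in KPF1F2 and 101 CPM in KP pre-depletion and at 119 in KPF1F2 and 168 in KP post-depletion. Higd1a, a mitochondrial protein gene, was on the other side, at 144 in KPF1F2 and 94.6 CPM in KP pre-depletion and 123 in KPF1F2 and 77.1 in KP post-depletion, and so was Ero1l, an oxidase for protein folding, with log2 folds of 0.40 and 0.46.

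Bnip3, a mitophagy receptor, had log2 folds of −0.34 and −0.30, P4ha1, a collagen prolyl hydroxylase subunit, 0.04 and 0.32, and Ddit4, an inhibitor of mTORC1 signalling, 0.21 and −0.05. Mxi1, an antagonist of Myc, was under the minimum, at 13.5 CPM in KPF1F2 and 8.93 in KP pre-depletion and 12.0 in KPF1F2 and 9.56 in KP post-depletion. Egln3 and Adm (adrenomedullin, a vasodilator peptide) did not exceed 3.00 CPM in epithelial-like cells of any library. Hif1a itself stood at 68.7 in KPF1F2 and 100.1 CPM in KP pre-depletion and at 72.7 in KPF1F2 and 104 in KP post-depletion, log2 folds of −0.54 and −0.51. HIF-1α is controlled mainly through its protein, which these counts do not measure.

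**Figure D1:**
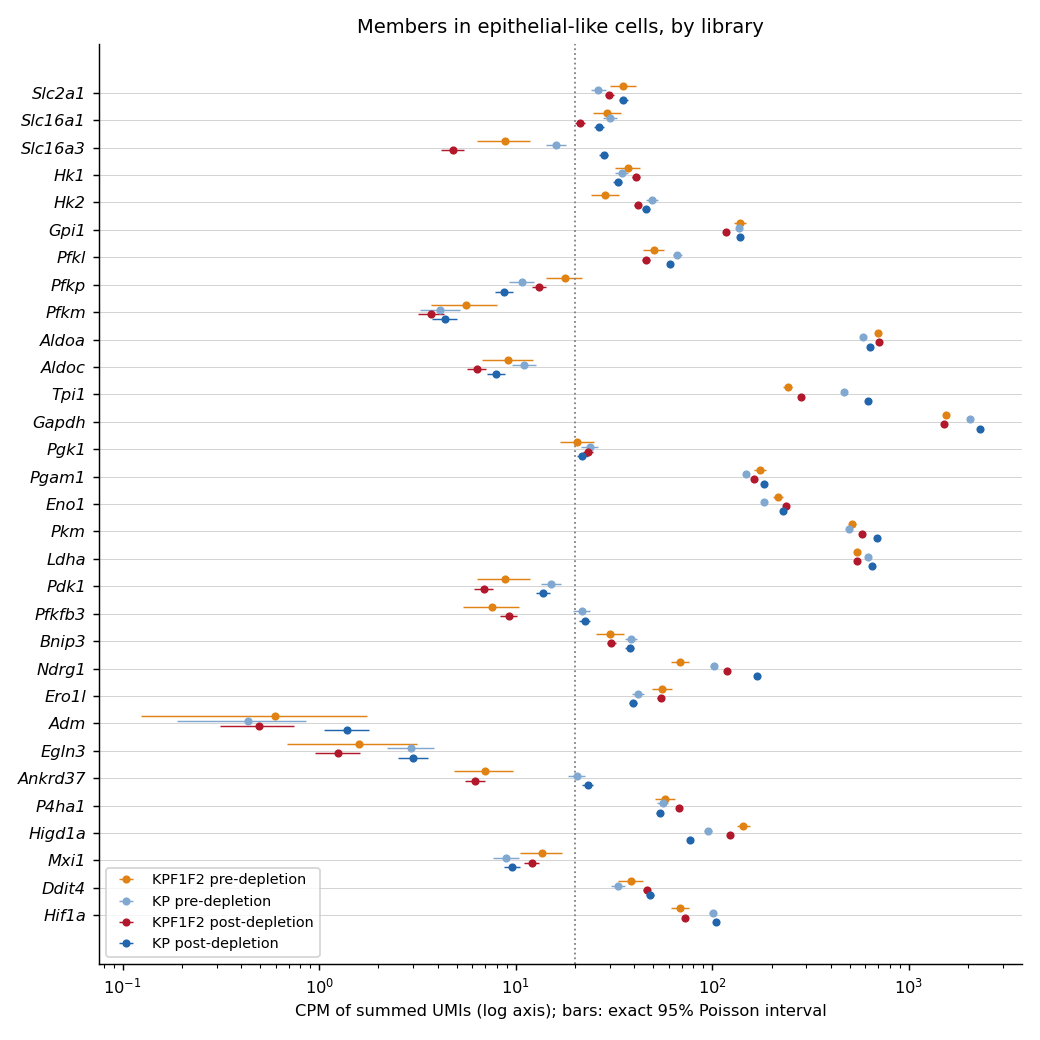
Level of each of the 31 members in epithelial-like cells, in CPM on a log axis, with KPF1F2 above KP within a depletion state. Points are single libraries, bars exact 95% Poisson intervals and the dotted line the 20 CPM minimum. Tpi1 lies at 241 and 282 CPM in KPF1F2 and at 467 and 617 in KP, and Ankrd37 at 6.97 and 6.21 in KPF1F2 and at 20.4 and 23.2 in KP.

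Choosing the epithelial-like cells with a CRE-ERT2 UMI, which come from cells that Flp had recombined, left 51 KPF1F2 and 249 KP cells pre-depletion and 572 KPF1F2 and 819 KP cells post-depletion. The choice favours deep cells, with medians of 29318 UMIs in KPF1F2 and 36261 in KP pre-depletion and 34322.5 in KPF1F2 and 21590 in KP post-depletion. Again no member was called in both states, where 3.99% of 5510 genes were higher and 2.72% lower. Of 21 compared in both states, 8 were above 0 in both (52.3% of all genes) and 9 below 0 in both (25.5%). Pre-depletion no member was called, with 8.16% of genes higher and 3.85% lower. Slc16a3 was called post-depletion, at 7.81 CPM in KPF1F2 and 36.7 in KP (log2 fold −2.10), the 1 call of 22 members, with 4.28% of genes lower and 5.34% higher. It met the 20 CPM minimum only through KP, so a call could only be lower, and the values are given as a description. Tpi1 stood at 366 in KPF1F2 and 716 CPM in KP post-depletion, a log2 fold of −0.97. Ankrd37 had log2 folds of −1.38 and −1.96, and Slc2a1, at 59.4 in KPF1F2 and 31.9 CPM in KP pre-depletion, had 0.87 and 0.14. Summed over the 15 enzymes, these cells held 6326 CPM in KPF1F2 and 5923 in KP pre-depletion. Post-depletion they held 5701 in KPF1F2 and 6756 in KP. The pre-depletion order was thus the reverse of that in all epithelial-like cells.

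**Figure D2:**
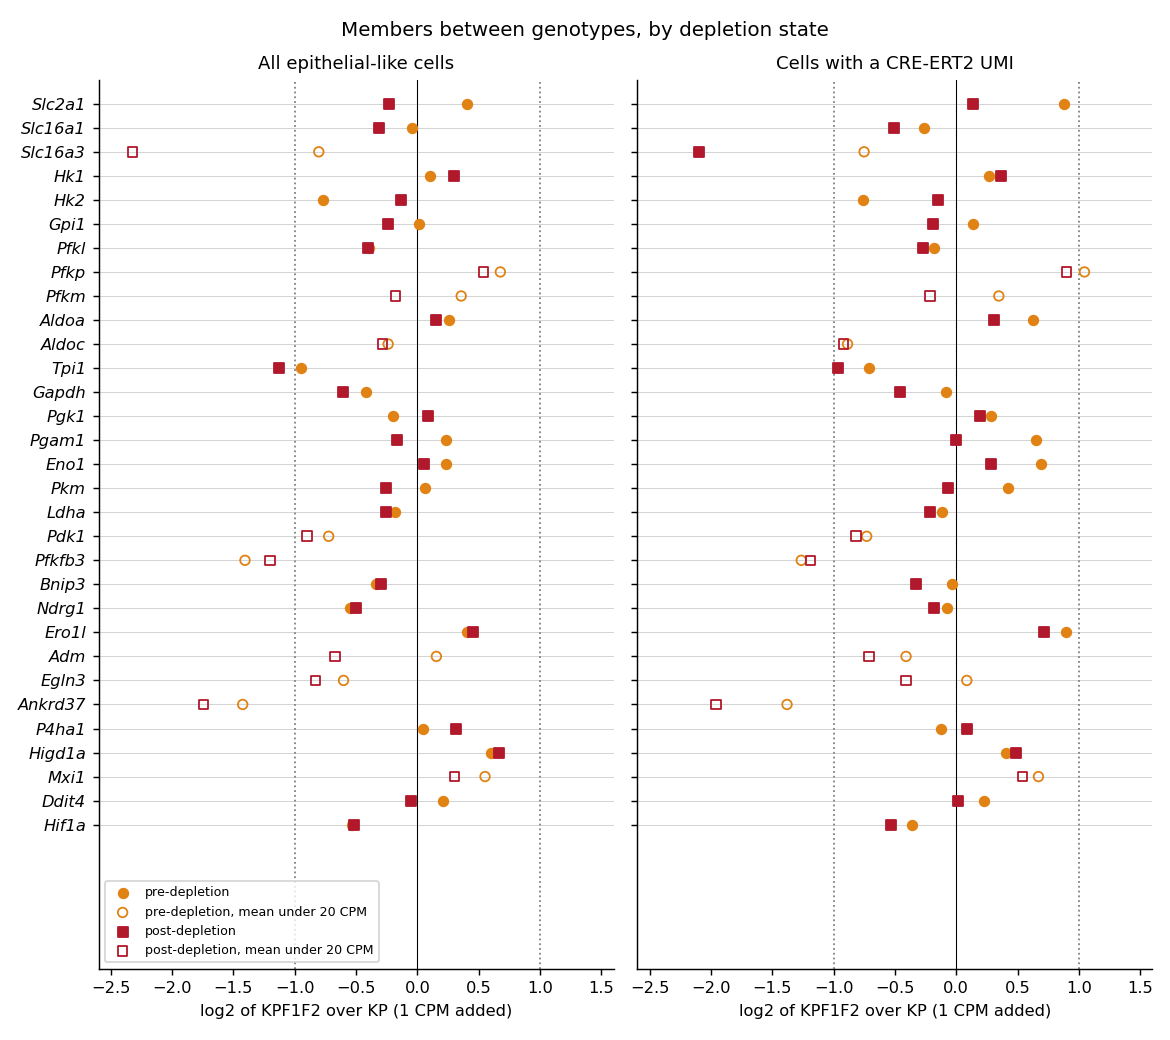
Log2 fold of each member between KPF1F2 and KP (KPF1F2 on top, 1 CPM added) in all epithelial-like cells and in those with a CRE-ERT2 UMI. Circles are pre-depletion, squares post-depletion, open symbols have a mean under 20 CPM, and dotted lines mark a 2-fold difference. Tpi1, Slc16a3, Pfkfb3 and Ankrd37 lie lowest, and most other members lie within 1 of 0.

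Genes of the same pathways outside the member list were counted too. Of 16 other hypoxia targets compared in both states, 9 were below 0 in both and 6 above 0 in both, beside the 31.5% and 46.3% of all genes. In cells with a CRE-ERT2 UMI 12 of 17 were below 0 in both, beside 25.5%. Post-depletion the median log2 fold of these targets in all epithelial-like cells was −0.37, beside 0.08 over all genes. Of 17 compared there, 4 were 2-fold lower and 0 higher, beside 3.77% and 4.73% of 5705 genes. Pre-depletion their median was −0.20, beside 0.09 over all genes. Of 16 compared in that state, 1 was 2-fold lower and 0 higher, beside 2.98% and 4.94% of 5647 genes. Of 7 genes of gluconeogenesis and glycogen, Pcx, the pyruvate carboxylase that feeds oxaloacetate, was higher, at 75.9 in KPF1F2 and 24.8 CPM in KP pre-depletion and 58.6 in KPF1F2 and 16.6 in KP post-depletion. Pygl, a glycogen phosphorylase, was lower, at 21.1 in KPF1F2 and 51.4 CPM in KP pre-depletion and 11.4 in KPF1F2 and 45.5 in KP post-depletion. Over all genes, 2.96% were 2-fold higher and 1.99% 2-fold lower in both states. None was called in both states among 5 other HIF regulators, 3 other isozymes and carriers, 12 other flux genes and 8 pentose phosphate genes. Pre-depletion alone, 1 of 12 other flux genes was higher and 1 lower, beside 4.94% and 2.98% of all genes. In cells with a CRE-ERT2 UMI, Vegfa, the angiogenic factor, was also lower in both states, at 80.8 in KPF1F2 and 194 CPM in KP pre-depletion and 82.3 in KPF1F2 and 206 in KP post-depletion, as was Pfkfb4, while Gpd2 was higher; these 3 were named after their values were seen. Of 12 immediate-early and heat shock genes, 2 moved with genotype: Hspa1a stood at 657 in KPF1F2 and 151 CPM in KP pre-depletion and 957 in KPF1F2 and 196 in KP post-depletion, and Hspa1b likewise, with log2 folds of 1.93 and 2.30. Beside these 2 of 12, 2.96% of all genes were 2-fold higher in both states. The part of the heat shock genes in the member results was not tested.

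Within the epithelium, levels of glycolytic enzymes differed between clusters of cells. Cells were clustered with the members and the listed pathway genes left out. Clusters 17 (leading genes UPRT_short and Serpinb2), 21 (Gkn2 and Gzme) and 28 (Npy and Qrfp) stood above the rest. In each of clusters 16, 17, 21, 25, 26 and 28 nearly all cells came from 1 genotype: 401 post-depletion cells of cluster 17 were KPF1F2, as were 920 of cluster 16 (Mme and S100g), while 836 of cluster 21, 707 of cluster 25 (Dlk1 and Itih4), 585 of cluster 26 (Dcpp1 and Bex2) and 99 of cluster 28 were KP. Clusters 7, 11 and 23 held cells of both genotypes. Cluster and genotype can thus be told apart only in part, and differences between clusters of 1 clustering are given as a description.

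The 15 enzymes summed to 7290 CPM in cluster 17 of KPF1F2 post-depletion, to 7977 post-depletion and 7269 pre-depletion in cluster 21 of KP, and to 8842 in cluster 28 of KP. They summed to 2826 CPM post-depletion and 3811 pre-depletion in cluster 16 of KPF1F2, to 2391 and 2550 in cluster 25 of KP, and to 3667 and 4593 in cluster 26 of KP. Cluster 7, led by Lyz1 and found in both genotypes, held 1843 CPM in KPF1F2 and 2207 in KP post-depletion, and cluster 23, led by the airway gene Scgb3a1, held 1809 in KP. Both genotypes thus had enzyme-rich cells beside enzyme-poor ones post-depletion.

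Depth moved with the clusters: median UMIs were 33515 in cluster 17 and 16655 in cluster 16 of KPF1F2, and 17268.5 in cluster 21, 34177 in cluster 28 and 10086 in cluster 25 of KP post-depletion. When each cell was thinned to 5000 UMIs, which left out shallower cells (37 of 401 in cluster 17, 64 of 836 in cluster 21), the median cell held 32.5 enzyme UMIs in cluster 17 and 13 in cluster 16, and 34 in cluster 21, 41.5 in cluster 28 and 10 in cluster 25. Among cells of 10000 to 30000 UMIs the sums were 6555 CPM in cluster 17 and 2652 in cluster 16, and 7759 in cluster 21, 8580 in cluster 28 and 2449 in cluster 25. Without cells that held a Mki67 or Top2a UMI, marks of division, the sums were 7203 CPM in cluster 17 and 2754 in cluster 16, and 7969 in cluster 21 and 2312 in cluster 25.

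**Figure D3:**
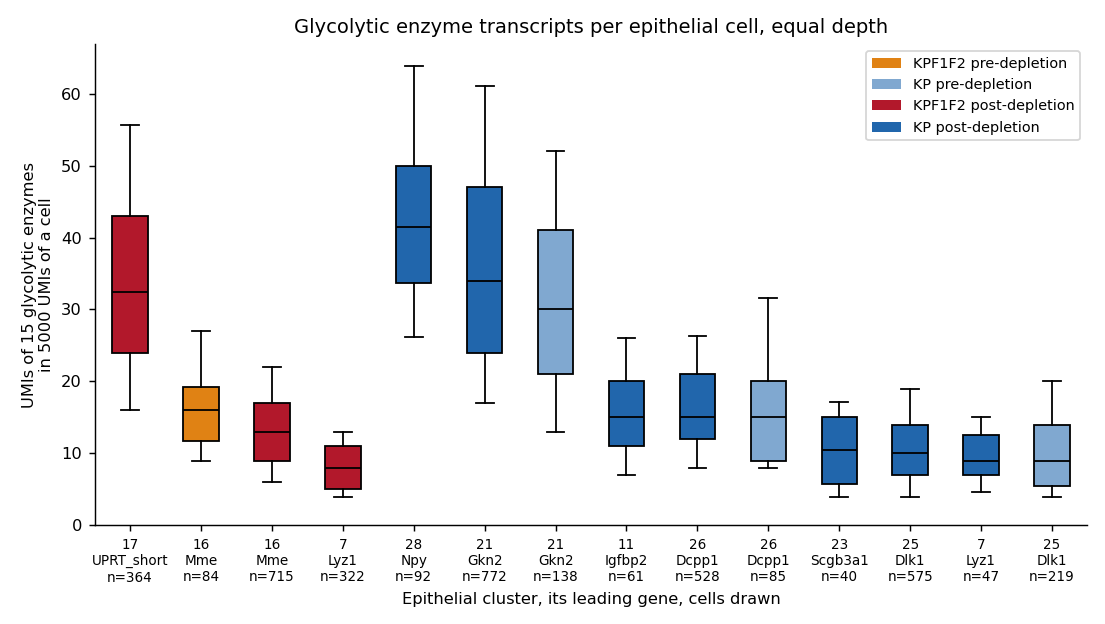
UMIs of the 15 glycolytic enzymes per epithelial cell after thinning to 5000 UMIs, by cluster and library with 50 cells or more. Boxes span the quartiles with the median, whiskers the tenth to ninetieth percentile, and numbers under the axis are the cells drawn. Medians are 32.5 in cluster 17 of KPF1F2 and 30 to 41.5 in clusters 21 and 28 of KP, against 8 to 16 in the other clusters.

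The clusters compared were picked by the summed level of these same enzymes, so that most enzymes were higher was fixed by the choice, and the values describe which ones. The post-depletion comparisons of clusters 21 and 28 also share cluster 25. Aldoa, Tpi1, Gapdh, Pgam1, Eno1 and Pkm were 2-fold higher in all 4 comparisons, 6 enzymes in all. Between clusters 17 and 16 of KPF1F2, 7 of 12 enzymes compared were at least 2-fold higher in cluster 17, against 11.1% of 5843 genes: Eno1 (487 against 107 CPM), Pgk1, Gapdh, Pgam1, Aldoa, Pkm and Tpi1, all from the aldolase step onwards. Between clusters 21 and 25 of KP post-depletion, 8 of 11 were higher in cluster 21, against 24.7% of 5358 genes (7.09% lower), with Eno1 at 329 and 59.4 CPM and Pkm, which makes pyruvate, at 1001 and 187. Pre-depletion 8 of 12 were higher, against 22.0% of 5368 genes (6.99% lower), and between clusters 28 and 25, 8 of 12, against 33.8% of 5311. The medians over the enzymes were 1.32, 1.59, 1.33 and 1.67 on the log2 scale in these 4 comparisons, beside 0.10, 0.50, 0.42 and 0.56 over all genes. Gpi1, which isomerises glucose phosphate, and Ldha differed less, with log2 differences of 0.09 and 0.69 between clusters 17 and 16 and of 0.59 and 0.91 between clusters 21 and 25 post-depletion.

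Of the carriers, Slc2a1 stood at 61.4 CPM in cluster 17 and 12.9 in cluster 16 of KPF1F2, and at 60.8 in cluster 21 and 9.24 in cluster 25 of KP post-depletion. Slc16a3 stood at 11.5 CPM in cluster 17, 38.7 in cluster 21 and 105.6 in cluster 28, and at 0.585 in cluster 16 and 1.36 in cluster 25. Slc16a1 stood at 13.2 CPM in cluster 17, 21.1 in cluster 21 and 13.1 in cluster 28, and at 21.0 in cluster 16 and 38.4 in cluster 25. Pre-depletion its ratio of cluster 21 over cluster 25 was 0.878 (0.710 to 1.08). Slc16a3 was also 39.3 CPM in the enzyme-poor cluster 23 of KP.

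The hypoxia genes split. Ndrg1 stood at 269 CPM in cluster 17 and 39.9 in cluster 16 of KPF1F2, and at 338 in cluster 21 and 14.8 in cluster 25 of KP post-depletion. Ddit4 and Ero1l were moderately higher, with log2 differences of 0.85 and 1.30 between clusters 17 and 16 and of 1.22 and 0.85 between clusters 21 and 25. P4ha1 had −0.26 and −0.04, Higd1a −0.09 and 0.24 and Bnip3 0.88 and 0.32, and in cluster 28 Bnip3 was 2-fold lower than in cluster 25 (16.0 and 33.9 CPM). Hif1a stood at 80.4 CPM in cluster 17 and 72.5 in cluster 16, and at 136 in cluster 21 and 66.2 in cluster 25. Ankrd37 stood at 3.51, 7.89 and 7.08 CPM in clusters 16, 17 and 7 of KPF1F2, each below the 10.2 to 46.9 CPM of the 7 KP clusters post-depletion. The 10.2 CPM belongs to cluster 7, of which KP held only 51 cells, so the gap in that shared cluster is uncertain.

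**Figure D4:**
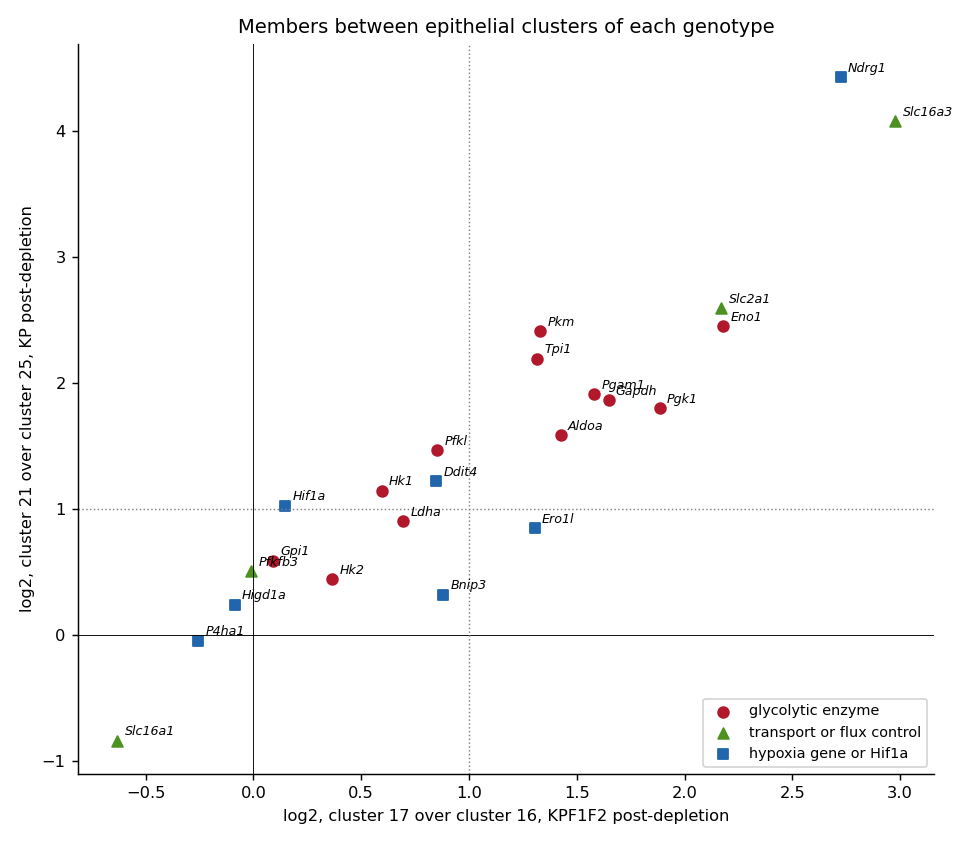
Log2 difference of each member with a mean of 20 CPM or more in either comparison, between clusters 17 and 16 of KPF1F2 (horizontal) and clusters 21 and 25 of KP (vertical), both post-depletion. Dotted lines mark 2-fold. Ndrg1, Slc16a3, Slc2a1 and Eno1 lie highest on both axes, while P4ha1, Higd1a and Slc16a1 lie near or below 0.

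Enzyme-rich clusters of the genotypes were also set directly against each other. Between cluster 17 of KPF1F2 and cluster 21 of KP post-depletion, 0 of 12 enzymes were 2-fold higher and 0 were 2-fold lower, and Slc16a3 was the 1 member of 21 called (11.5 and 38.7 CPM, log2 difference −1.67), where 5.42% of 5662 genes were lower and 4.47% higher. Slc16a3 met the 20 CPM minimum there only through cluster 21, so its call could only be lower. Tpi1 was just short of a call, at 467 CPM in cluster 17 of KPF1F2 and 934 in cluster 21 of KP. It stood at 187 and 137 CPM in clusters 16 and 7 of KPF1F2, and at 203, 472 and 664 in clusters 25, 26 and 28 of KP. The enzyme-poor cluster 25 of KP was thus near cluster 16 of KPF1F2. In cluster 7, the cluster with 50 cells or more of both genotypes, Tpi1 stood at 137 CPM in KPF1F2 and 139 in KP, so its genotype difference was not seen there. Cluster 7 held 1.51 CPM of CRE-ERT2, against 16.4 to 54.2 in clusters 16, 17, 21, 25, 26 and 28, and its KP part was 51 cells. Lower Tpi1 in KPF1F2 was not confined to the epithelium. Pre-depletion, macrophages other than alveolar-like held 150 CPM in KPF1F2 and 241 in KP (ratio 0.622, 0.578 to 0.671). Cluster 1 of neutrophil-like cells held 131 and 226, and cluster 4 of alveolar macrophage-like cells 128 and 169. In cluster 0 of neutrophil-like cells the ratio was 0.823 (0.372 to 2.15). The surfactant transcript Sftpc was also lower in KPF1F2, at 43.3 CPM against 448 in KP in macrophages other than alveolar-like. It stood at 143 in KPF1F2 and 1559 in KP neutrophil-like cells, a class in which 25.6% of all genes were 2-fold lower. The part of stray epithelial RNA in these Tpi1 values was not tested.

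Across cell classes, members were ranked within each pre-depletion library over 12 classes in KPF1F2 and 10 in KP. The unnamed cells counted as a class, and in KP they come from shallow clusters 24 and 27, in which 9 and 10 of 10 general epithelial markers were raised. Neutrophil-like cells (525 in KPF1F2 and 191 in KP) were highest for Slc2a1, at 188 CPM in KPF1F2 and 169 in KP, for Slc16a3, at 1374 and 254, for Egln3, at 125 and 237, and for Mxi1, at 127 and 106. Macrophages other than alveolar-like cells came second for Slc2a1, at 54.6 CPM in KPF1F2 and 67.7 in KP. T cell-like cells were highest for Hif1a, at 367 CPM in KPF1F2 and 372 in KP. Conventional dendritic cell-like cells were highest for Pfkp, at 341 and 227. Endothelial-like cells (82 in KPF1F2 and 128 in KP) were highest for Ankrd37, at 108 CPM in KPF1F2 and 201 in KP, and in KPF1F2 for Ndrg1, at 144 CPM, while in KP those unnamed cells held 155, endothelial-like cells 134 and epithelial-like cells 101. Fibroblast-like cells of KPF1F2 were highest for Adm in that library, at 267 CPM, and held 165 in KPF1F2 and 18.0 in KP post-depletion. Different clusters made up that class post-depletion, cluster 12 with 167 KPF1F2 and 86 KP cells and cluster 18 with 254 KPF1F2 and 14 KP cells. Epithelial-like cells were highest for Tpi1 in both libraries. Mesothelial-like cells of KPF1F2 post-depletion (85 cells) held 368 UMIs of Slc16a1, or 249 CPM.

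Between genotypes, neutrophil-like cells differed in Slc16a3. It was higher, at 1374 CPM in KPF1F2 (2250 UMIs) and 254 in KP (173 UMIs), a ratio of 5.40 (4.62 to 6.34), the 1 of 25 members called higher, where 3.47% of 4527 genes were higher. Hk2, Tpi1 and P4ha1 were called lower, with 38.5 in KPF1F2 and 110 CPM in KP for Hk2, 84.2 and 200 for Tpi1, and 31.1 and 66.2 for P4ha1, but 25.6% of all genes were 2-fold lower too. The median log2 fold was −0.29 over the members and −0.54 over all genes. With TMM factors, which moved the median of all genes to 0.22, 2 members were higher and 0 lower, and the log2 fold of Slc16a3 was 3.16.

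The class is made up of 2 clusters, of which cluster 0 held most KPF1F2 cells (302 of 525) and cluster 1 most KP cells (160 of 191). In cluster 1, led by Ccl3 and Il1b, Slc16a3 stood at 570 CPM in KPF1F2 and 181 in KP (ratio 3.15, 2.53 to 3.96), and in cluster 0, led by Retnlg and S100a9, at 1920 in KPF1F2 and 635 in KP (3.02, 2.38 to 3.89). In cluster 1 alone, 0 members were 2-fold lower. The surfactant transcript Sftpc, which neutrophils do not make, stood at 143 CPM in KPF1F2 and 1559 in KP neutrophil-like cells, and S100a8, a main neutrophil transcript, at 44590 and 15877. With 5% of each profile taken off as free RNA, the log2 fold of Slc16a3 was 2.43. Slc2a3, the glucose carrier of leukocytes, outside the member list, had a ratio of 3.16 (2.35 to 4.32) on 388 UMIs in KPF1F2 and 51 in KP.

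In macrophages, Bnip3 was called, and Egln3 and Ankrd37 were low. Bnip3 was called lower in alveolar macrophage-like cells (742 in KPF1F2 and 1039 in KP), at 14.7 CPM in KPF1F2 and 34.1 in KP, the 1 call of 20 members, where 0.763% of 5371 genes were lower and 1.71% higher. It was also called lower in macrophages other than alveolar-like (480 in KPF1F2 and 352 in KP), on 113 UMIs in KPF1F2 and 275 in KP (ratio 0.296, 0.236 to 0.370), the 1 call of 22 members, with backgrounds of 2.06% lower and 2.14% higher over 5237 genes. In both classes Bnip3 met the 20 CPM minimum only through KP, so a call could only be lower, and the values are given as a description. Egln3, the HIF prolyl hydroxylase, was under the minimum but nearly missing in KPF1F2: alveolar macrophage-like cells held 4 UMIs in KPF1F2 and 247 in KP, a ratio of 0.0182 (0.00493 to 0.0473), and the other macrophages held 1 UMI in KPF1F2 and 50 in KP, a ratio of 0.0144 (3.58e-04 to 0.0841). Ankrd37 stood at 1.81 CPM in KPF1F2 and 12.9 in KP alveolar macrophage-like cells, also under the minimum. The log2 fold of Bnip3 was −1.16 in alveolar macrophage-like cells (−1.42 to −0.55 over the alternatives) and −1.68 in the other macrophages (−2.30 to −0.83, the last with at most 10% mitochondrial UMIs).

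S100a8 stood at 160 CPM in KPF1F2 and 47.3 in KP alveolar macrophage-like cells, with all 10 neutrophil markers found in both (sums of 283 and 127 CPM), and their part in these values was not tested. Heat shock genes moved with genotype here as well: Hspa1a stood at 99.1 CPM in KPF1F2 and 9.59 in KP alveolar macrophage-like cells and at 480 in KPF1F2 and 42.0 in KP other macrophages. Of the 12 immediate-early and heat shock genes 3 were higher and 0 lower in alveolar macrophage-like cells, and 3 higher and 2 lower in the other macrophages, and their part was not tested. Different clusters held most of the alveolar macrophage-like class in each genotype, cluster 4 with 648 KPF1F2 and 44 KP cells, and cluster 5 with 19 KPF1F2 and 796 KP cells. Within cluster 4, Bnip3 stood at 15.1 CPM in KPF1F2 and 15.5 in KP (ratio 0.969, 0.592 to 1.69), so the class difference was not seen there, while Egln3 stood at 0.260 and 4.57 CPM on 4 and 5 UMIs. Within cluster 6, a shallow cluster led by Ccl24 with 75 KPF1F2 and 199 KP cells, Bnip3 stood at 9.34 CPM in KPF1F2 and 32.8 in KP (ratio 0.285, 0.145 to 0.545), and Hk2 at 121 CPM in KPF1F2 and 12.6 in KP on 221 and 10 UMIs. In the other macrophages, 1 cluster held all cells of both genotypes. Hif1a was at 222 CPM in KPF1F2 and 146 in KP alveolar macrophage-like cells and at 177 and 231 in the other macrophages, and Hk2 at 64.6 and 36.3 and at 86.4 and 97.3.

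**Figure D5:**
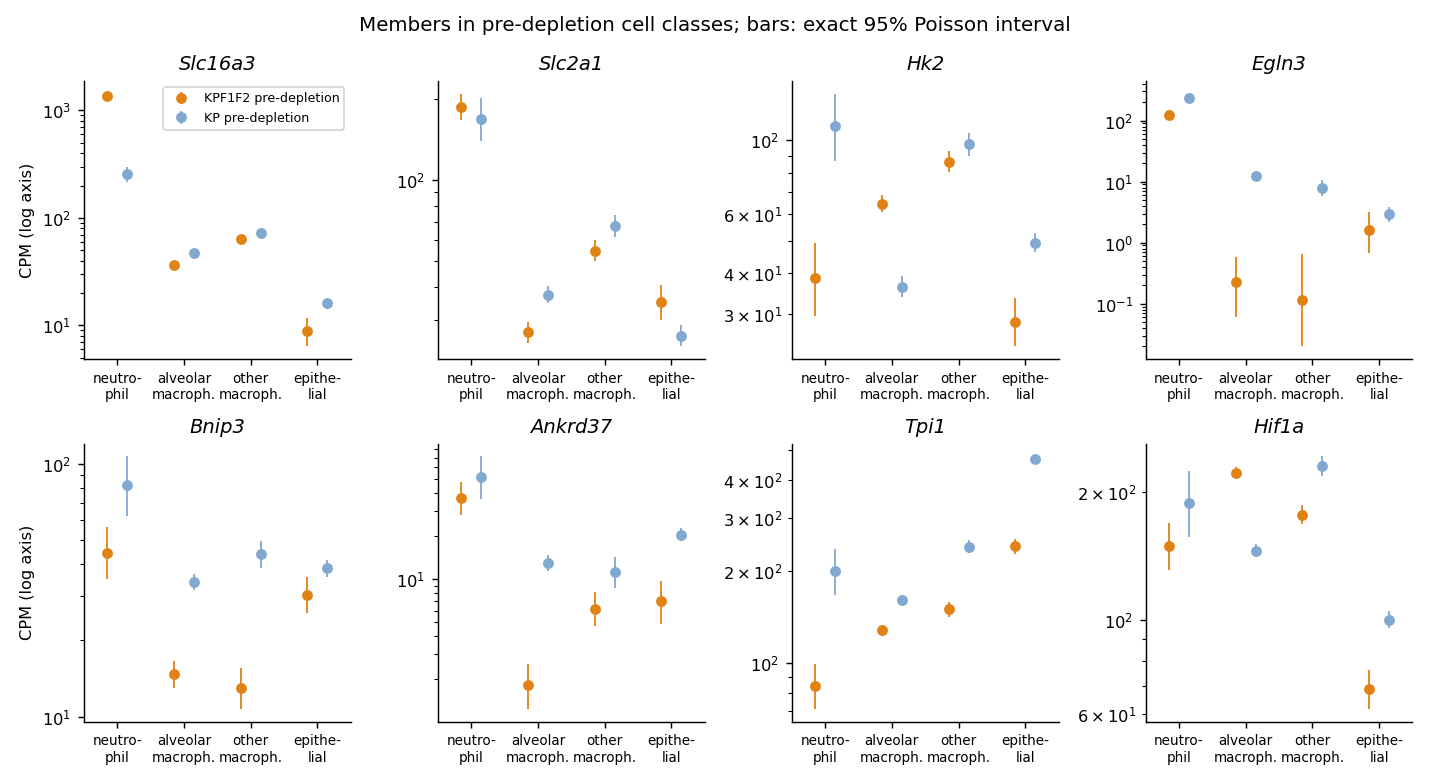
Levels of 8 members in 4 pre-depletion cell classes, in CPM on a log axis, KPF1F2 left of KP in each class. Points are single libraries and bars exact 95% Poisson intervals. Slc16a3 stands at 1374 CPM in KPF1F2 and 254 in KP neutrophil-like cells, and Egln3 at 0.226 in KPF1F2 and 12.4 in KP alveolar macrophage-like cells.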

How the data were processed

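Single cells of 4 libraries were analysed. The authors deposited raw UMI counts per gene and barcode, per the file headers by Cell Ranger 6.0.0, and aligned to mm10 per the submitters' processing notes, from 10x 3′ version 3.1 libraries per the labels; for settings and strandedness: not given in the sources used here. Cells with at least 1000 UMIs, 500 genes and at most 20% mitochondrial UMIs were kept. Scrublet marked under 0.5% of cells, so the highest 0.8% per 1000 barcodes were removed (91 to 247 a library). Counts were log-normalised to 10000, and 2000 variable genes without 142 listed genes, 30 components and 15 neighbours gave Leiden clusters at resolution 1 (scanpy 1.11.5, igraph 0.11.9). Clusters were named from at least 3 raised markers of 21 sets; 4 shallow clusters with raised epithelial markers, but none of the general epithelial list among their 10 leading genes, stayed unnamed (2 KPF1F2 and 231 KP cells pre-depletion, 197 KPF1F2 and 847 KP cells post-depletion). UMIs were summed per library and class and given as CPM. Fold changes put KPF1F2 on top, on the log2 scale after adding 1 CPM, among genes with a mean of 20 CPM, and a call is 2-fold. Intervals are 95%: exact Poisson for CPM, conditional binomial for ratios, Clopper-Pearson for shares. Scaling alternatives used edgeR 4.0.16 and DESeq2 1.42.0 (R 4.3.3), for factors only. The steps were tested on simulated data. All 31 members were named, and of other lists genes 2-fold different in both states; 1 allele shared by all groups and the list of other hypoxia targets are not reported here in full. Members and lists were chosen with earlier results of these data known. Gene positions are from GENCODE mouse annotation of GRCm38. The annotation holds pseudogenes named after Aldoa, Gapdh, Pgk1, Pgam1 and Ldha, so their counts are uncertain where counting could split reads.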

Additional observations from a re-analysis of the deposited data

Results flagged for a closer look

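Slc16a3 was picked out because its genotype difference had opposite signs in 2 kinds of cell from the same tumours. The log2 fold of KPF1F2 over KP was 2.43 in neutrophil-like cells pre-depletion, against -0.80 pre-depletion and -2.33 post-depletion in epithelial-like cells. Counting intervals of the ratio excluded 1 in all 3 comparisons, but they cover counting error only. In all epithelial-like cells its mean was under the 20 CPM minimum in both states, so it was not called there. The neutrophil-like class held its 2 clusters in unequal parts by genotype. Within clusters 0 and 1 the log2 fold was 1.59 and 1.65. With 1 library a group the difference between cell types was not tested.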

How the results depend on the processing

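No paired analysis was possible because each group has 1 library, so no 2 groups share more than 1 replicate number. The counts of members called are small and move with the settings. Shares over all genes at each changed setting are not given here. The counts below therefore describe how the calls move and do not set the members against other genes. Without a CPM minimum, members 2-fold lower numbered 2 in epithelial-like cells pre-depletion, 4 post-depletion and 2 in both states (Pfkfb3 and Ankrd37 have folds past 2 in both). For CRE-ERT2 cells the numbers were 2, 3 and 2, with 1 higher pre-depletion, and elsewhere 6 in neutrophil-like, 3 in alveolar macrophage-like and 3 in other macrophage cells, with 1 higher in the last. At a mean of 50 CPM 0 were lower in both macrophage classes and in CRE-ERT2 cells post-depletion, and with 5 CPM added 0 in alveolar macrophage-like cells. TMM factors and median-of-ratios factors each gave 1 lower in epithelial-like cells pre-depletion and 1 in both states (Tpi1), 2 lower in CRE-ERT2 cells post-depletion, and 0 lower in neutrophil-like cells with 2 and 3 higher and member medians of 0.44 and 0.51. Keeping doublets gave 1 higher and 0 lower in alveolar macrophage-like cells and 1 lower in neutrophil-like cells. A filter of 500 UMIs and 300 genes gave 0 lower in alveolar macrophage-like, 3 in other macrophage and 1 in neutrophil-like cells, and turned Ndrg1 to 1.02 in alveolar macrophage-like cells. At most 10% mitochondrial UMIs gave 0 lower in other macrophages (Bnip3 -0.83) and 1 in neutrophil-like cells. Equal weight per cell gave 2 lower in alveolar macrophage-like cells and 1 each in epithelial-like and CRE-ERT2 cells pre-depletion, and leaving out cells with Mki67 or Top2a UMIs gave 2 lower in alveolar macrophage-like cells. Without clusters low in CRE-ERT2, 0 were lower in epithelial-like cells post-depletion (Tpi1 -0.98). Chosen after seeing the data, cells of 10000 to 30000 UMIs gave 1 lower pre-depletion and 2 post-depletion in epithelial-like cells, 2 and 2 in CRE-ERT2 cells with a median of -0.36 post-depletion, and turned Pfkp to -0.61 and Egln3 to -1.57 in CRE-ERT2 cells pre-depletion; the neutrophil cluster shared by both libraries gave 0 lower and turned Slc16a1 to 1.33. The cause of these moves was not tested. Of the log2 folds of single members under all alternatives, 3092 stayed on their side of 2-fold, 55 passed it, 42 fell short and 4 reversed. Smaller folds also changed sign. In epithelial-like cells pre-depletion Gapdh ran from -0.53 to 0.30 and Ldha from -0.30 to 0.18. Post-depletion Aldoa ran from -0.26 to 0.34 and Eno1 from -0.49 to 0.28, while Tpi1 and Hif1a stayed below 0 in both states. Slc16a3 in neutrophil-like cells ran from 1.65 to 3.23 and Tpi1 in epithelial-like cells post-depletion from -1.57 to -0.98. Low counts limit Adm and Egln3 in epithelial-like cells, and the 51 KPF1F2 cells with a CRE-ERT2 UMI pre-depletion are few.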
